A study of Mus musculus with 17 samples.

Results

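Integrins are the cell surface receptors through which kidney cells hold on to their matrix, and several of them bind CCN2, the matrix-associated protein encoded by Ctgf. The genes followed here were 10 integrin chains, namely the α chains Itga1, Itga2, Itga3, Itga5, Itga6 and Itgav and the β chains Itgb1, Itgb3, Itgb5 and Itgb6. They were chosen by name, with earlier results of these data known. They matched 10 of the 38293 genes in the deposited table, and 8 of them were among the 12608 genes that passed a filter on low values and were tested. Kidney cortex RNA was taken 4 h after surgery from 17 male C57Bl6/J mice that all carried floxed CCN2 alleles and ROSA26CreERT2, a tamoxifen-activated Cre recombinase expressed in all cell types. The groups were 5 CCN2 KO IRI, 4 WT IRI, 4 CCN2 KO sham and 4 WT sham kidneys. Mice labelled CCN2 KO had received tamoxifen and mice labelled WT had received corn oil, so the loss of CCN2 and the drug cannot be told apart. IRI, ischemia-reperfusion injury, was made by clamping both renal pedicles, and sham mice had the operation without the clamp. Each library came from the cortex of 1 mouse.

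An integrin is a pair of 1 α and 1 β chain, and the pair decides which matrix protein is bound. The β1 chain pairs with many α chains: with α1 or α2 it binds collagen, with α3 or α6 laminin, the main glycoprotein of tubular basement membranes, and with α5 fibronectin. The αv chain pairs with β1, β3, β5 or β6, and these receptors bind ligands such as vitronectin, fibronectin and osteopontin through the peptide motif RGD. The αvβ6 receptor is restricted to epithelia and is known for releasing active TGFβ from its latent complex. CCN2 has no RGD motif of its own and has been described to bind several of these receptors, among them αvβ3, α5β1, α6β1 and αvβ6. Chains that find no partner are mostly retained in the cell, and RNA levels do not measure the pairs at the surface.

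The promoter-proximal sequence of 5 members is shown. Itgb6, Itgav, Itga5 and Itgb1 were higher after IRI under both labels. Itgb5 was the member called different between CCN2 KO IRI and WT IRI kidneys, a call lost in 9 of 17 alternatives. Itga6 and Itga3 were also higher after IRI under both labels, but Itga6 had no RefSeq window and Itga3 is not printed. Each line gives bases upstream of the start site, 5′ to 3′ on the gene's own strand, from RefSeq on GRCm38.p6. The Itgb6 line stops at the GENCODE start, chr2:60722643, which lies upstream of its RefSeq start, chr2:60722603, so the bases between are not shown. Capitals mark a match to a searched motif on either strand.
Itgb6 (chr2:60722644-60722853, minus strand, 210 bases): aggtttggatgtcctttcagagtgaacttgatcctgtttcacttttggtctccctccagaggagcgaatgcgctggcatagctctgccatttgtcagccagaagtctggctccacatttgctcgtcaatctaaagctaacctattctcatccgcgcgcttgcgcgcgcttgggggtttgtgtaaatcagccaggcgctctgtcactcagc
Itgav (chr2:83724147-83724396, plus strand, 250 bases): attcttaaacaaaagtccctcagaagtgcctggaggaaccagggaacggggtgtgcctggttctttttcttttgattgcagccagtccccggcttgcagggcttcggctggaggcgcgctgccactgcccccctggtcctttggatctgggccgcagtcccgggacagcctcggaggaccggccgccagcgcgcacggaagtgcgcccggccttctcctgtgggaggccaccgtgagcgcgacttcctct
Itga5 (chr15:103366792-103367041, minus strand, 250 bases): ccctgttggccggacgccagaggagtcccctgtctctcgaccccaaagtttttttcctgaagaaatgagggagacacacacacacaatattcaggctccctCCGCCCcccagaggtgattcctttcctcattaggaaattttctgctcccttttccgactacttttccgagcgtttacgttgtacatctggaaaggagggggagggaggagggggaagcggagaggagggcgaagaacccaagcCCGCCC
Itgb1 (chr8:128685404-128685653, plus strand, 250 bases): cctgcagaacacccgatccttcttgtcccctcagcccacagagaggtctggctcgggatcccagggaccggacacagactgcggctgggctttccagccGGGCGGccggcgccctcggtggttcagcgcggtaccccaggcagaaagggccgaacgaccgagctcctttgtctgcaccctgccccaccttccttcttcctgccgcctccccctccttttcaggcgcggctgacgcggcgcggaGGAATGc
Itgb5 (chr16:33829415-33829664, plus strand, 250 bases): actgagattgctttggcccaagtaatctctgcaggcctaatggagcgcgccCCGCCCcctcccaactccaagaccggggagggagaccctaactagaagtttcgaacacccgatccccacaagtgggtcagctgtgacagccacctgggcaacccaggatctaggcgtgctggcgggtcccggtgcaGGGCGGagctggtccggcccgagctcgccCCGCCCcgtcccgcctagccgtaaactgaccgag
Of the 10 members, 8 (all but Itga6 and Itgb3) had a RefSeq window of 300 bases (250 before and 50 after a start site), and 2 of these had a second start, which made 10 windows. The motifs searched on both strands were GGGCGG (SP1), GGAATG (TEAD, the partner of YAP), TGANTCA (AP-1) and TGACGTCA (CRE). The SP1 motif was in 7 of the 10 windows, against 35.7% of all 32851 windows. In the printed stretches it is capitalized in Itga5, Itgb1 and Itgb5, where GGGCGG reads CCGCCC on the other strand, while that of Itgav lies 8 bases after the start and outside the stretch shown. The TEAD motif was in 1 window, that of Itgb1, 7 bases before the start (14.7% of all windows). The AP-1 motif was in 1 window, at the second start of Itga3 (7.81% of all windows). The CRE motif was in 0 of the 10 windows (1.79% of all windows). The printed stretches of Itgb6 and Itgav hold none of the searched letters. Such matches are a description of the letters and show no binding.

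On GRCm38 with the GENCODE M21 annotation all members are protein-coding. Itga1 lies at chr13:114953096-115101964 and Itga2 at chr13:114833081-114932100, neighbours on the minus strand. Itga3 is at chr11:95044474-95076801 and Itga5 at chr15:103344286-103366763, both on the minus strand. Itga6 at chr2:71745616-71858416 and Itgav at chr2:83724397-83806916 are on the plus strand, and Itgb6 at chr2:60598292-60722643 is on the minus strand of the same chromosome. Itgb1 lies at chr8:128685654-128733200, Itgb3 at chr11:104608000-104670476 and Itgb5 at chr16:33829665-33949338, all on the plus strand. Values are counted over whole genes, so exons, introns and transcript forms are not resolved. Itga1 shares 685 exonic bases with Gm49395 on the same strand, so reads of these genes may not be fully told apart. Itgav shares 634 exonic bases with Gm13684 on the other strand, which was at the lowest value of the table on average over the kidneys.

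Ctgf was measured in every kidney as a check of the labels. Its log2 RPKM was 5.04, 3.75, 4.16, 4.33 and 3.86 in CCN2 KO IRI kidneys, against 4.95, 5.02, 4.41 and 3.92 in WT IRI kidneys. In CCN2 KO sham kidneys it was 2.87, 2.95, 3.92 and 3.91, against 2.65, 3.95, 3.91 and 4.26 in WT sham kidneys. The ranges overlapped in both comparisons, and neither difference passed the test: the log2 difference was −0.35 after IRI (SE 0.35, adjusted p = 0.525, limma) and −0.28 after sham (SE 0.37, adjusted p = 0.777). Groups are called by their labels, and each comparison of CCN2 KO with WT is one between kidneys so labelled. Libraries of 1 group correlated across genes at 0.915 to 0.961, and the depth is unknown. Animal codes begin with 33 in all 9 IRI kidneys and with 32 or 33 in 2 each of the 4 kidneys of either sham group, so every comparison of IRI with sham was repeated with the kidneys coded 33. In bulk cortex, fewer cells of a type and less RNA per cell cannot be told apart.

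RPKM, reads scaled to gene length and library size, allows levels to be ordered between genes, and in the deposited table a log2 value of −3.32 is the lowest possible and stands for an RPKM of 0.1. Itgb1, the common partner of most α chains, had the highest level of the 10 members in every group, with a mean log2 RPKM of 6.06 ± 0.11 (SD, n = 5) in CCN2 KO IRI, 5.90 ± 0.09 (n = 4) in WT IRI, 5.59 ± 0.17 (n = 4) in CCN2 KO sham kidneys and 5.33 ± 0.20 (n = 4) in WT sham kidneys. Its range lay above that of the next member in each group. Itgb5 and Itgb6, which both pair with αv, followed in IRI kidneys: Itgb6 ranked 3 in CCN2 KO IRI and 2 in WT IRI kidneys, but 5 in CCN2 KO sham kidneys and 4 in WT sham kidneys. The ranges of Itgb5 and Itgb6 overlapped in CCN2 KO IRI kidneys and lay apart in the other 3 groups, with Itgb6 above Itgb5 in WT IRI kidneys and below it in both sham groups. Itga6, Itgav and Itga3 stood at mean log2 levels of 3.66 to 4.33 in the IRI groups and of 2.54 to 3.38 in the sham groups. In IRI kidneys the neighbours Itga6 and Itgav overlapped in range, and in sham kidneys Itgav, Itga3 and Itgb6 overlapped with their neighbours in the order. Itga1 and Itga5 came next, and Itgb3 and Itga2 ranked 9 and 10 in every group.

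**Figure D1:**
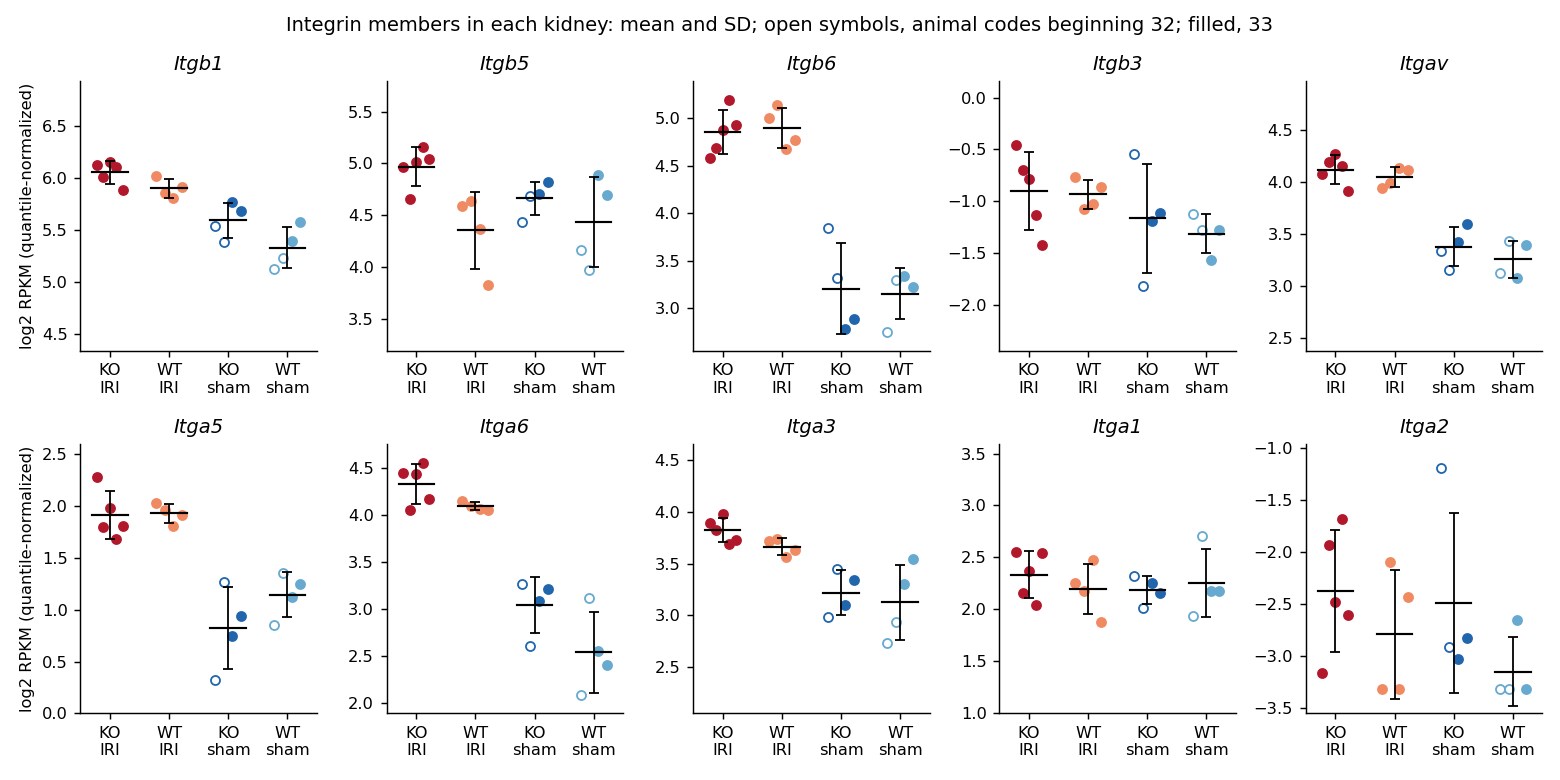
Quantile-normalized log2 RPKM of the 10 integrin members in each kidney, one panel a gene, with CCN2 KO IRI, WT IRI, CCN2 KO sham and WT sham from left to right; points are kidneys, lines and bars the mean and SD, and open symbols mark animal codes beginning with 32. Vertical axes differ between panels. IRI kidneys lie above sham kidneys of the same label without overlap for Itgb1, Itgb6, Itgav, Itga5, Itga6 and Itga3, and Itgb5 is higher in CCN2 KO IRI kidneys than in WT IRI kidneys.

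Comparing IRI with sham kidneys asks how the receptors responded within hours of reperfusion. Of the 8 members tested, 6 rose after IRI and 0 fell, both in CCN2 KO and in WT kidneys: Itgb1, Itgb6, Itgav, Itga3, Itga5 and Itga6. In all 6, and under both labels, every IRI kidney was above every sham kidney. Itga1 and Itgb5 did not pass the test under either label. With the kidneys coded 33 alone the count was 6 in CCN2 KO and 5 in WT kidneys, where Itga3 no longer passed. The median log2 difference of the tested members was 0.68 for CCN2 KO IRI against CCN2 KO sham and 0.68 for WT IRI against WT sham, beside medians of −0.02 and −0.05 over all genes tested. Among all genes tested, 14.3% were higher and 13.2% lower in CCN2 KO IRI against CCN2 KO sham kidneys, and 20.7% had ranges that did not overlap. For WT IRI against WT sham 19.5% were higher and 20.3% lower, and 37.7% did not overlap.

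Itgb6, the epithelial β chain of the TGFβ-activating receptor αvβ6, had the largest difference of the members. Its log2 RPKM was 4.58, 4.69, 4.87, 5.19 and 4.93 in CCN2 KO IRI kidneys, against 3.84, 3.32, 2.78 and 2.88 in CCN2 KO sham kidneys. It was 5.00, 5.14, 4.67 and 4.77 in WT IRI kidneys, against 2.75, 3.29, 3.34 and 3.22 in WT sham kidneys. The lowest IRI kidney stood above the highest sham kidney in each pair. The log2 difference was 1.64 (SE 0.19, 3.13-fold, adjusted p = 3.18e-05) in CCN2 KO and 1.74 (SE 0.20, 3.35-fold, adjusted p = 8.26e-06) in WT kidneys. Among CCN2 KO sham kidneys, those coded 32 were higher than those coded 33, and with the kidneys coded 33 alone the difference was 2.02 in CCN2 KO (adjusted p = 4.29e-05) and 1.61 in WT (adjusted p = 5.4e-05).

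Itgav, the α chain that Itgb6, Itgb5 and Itgb3 share, was 4.08, 4.19, 4.27, 4.16 and 3.91 in CCN2 KO IRI kidneys on the log2 RPKM scale, against 3.34, 3.15, 3.42 and 3.60 in CCN2 KO sham kidneys. In WT IRI kidneys it was 3.94, 3.99, 4.14 and 4.12, against 3.12, 3.43, 3.08 and 3.39 in WT sham kidneys. IRI and sham kidneys were separate under both labels. The log2 difference was 0.75 (SE 0.11, 1.68-fold, adjusted p = 0.000155) in CCN2 KO and 0.79 (SE 0.11, 1.73-fold, adjusted p = 4.71e-05) in WT kidneys. Itgb5, which pairs with αv to bind vitronectin, had a difference of 0.30 (95% CI −0.10 to 0.70, adjusted p = 0.25) in CCN2 KO and of −0.07 (95% CI −0.49 to 0.34, adjusted p = 0.788) in WT kidneys. The WT sham kidneys coded 32 had Itgb5 log2 RPKM of 4.17 and 3.97 and those coded 33 had 4.89 and 4.70. With the kidneys coded 33 alone its difference for WT IRI against WT sham was −0.44 (adjusted p = 0.0998).

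The laminin receptor chains rose as well. Itga6, which pairs with β1 in most cells and with β4 in hemidesmosomes, had log2 RPKM of 4.45, 4.05, 4.44, 4.56 and 4.17 in CCN2 KO IRI kidneys, against 3.27, 2.61, 3.09 and 3.21 in CCN2 KO sham kidneys. The WT IRI kidneys had 4.15, 4.10, 4.07 and 4.06, against 2.09, 3.12, 2.55 and 2.41 in WT sham kidneys. All IRI kidneys were above all sham kidneys, and WT IRI kidneys spread least. The log2 difference was 1.29 (SE 0.17, 2.44-fold, adjusted p = 9.44e-05) in CCN2 KO and 1.55 (SE 0.18, 2.94-fold, adjusted p = 8.9e-06) in WT kidneys. Itga3, whose product anchors podocytes and tubule cells to laminin, had a smaller difference: 0.60 (SE 0.14, adjusted p = 0.00485) in CCN2 KO and 0.53 (SE 0.15, adjusted p = 0.00865) in WT kidneys. Its log2 RPKM was 3.89, 3.82, 3.98, 3.69 and 3.73 in CCN2 KO IRI kidneys, against 2.98, 3.45, 3.10 and 3.34 in CCN2 KO sham kidneys. It was 3.72, 3.74, 3.56 and 3.63 in WT IRI kidneys, against 2.73 and 2.94 in WT sham kidneys coded 32 and 3.30 and 3.54 in those coded 33. With the kidneys coded 33 alone the WT difference of Itga3 was 0.24 and no longer passed (adjusted p = 0.116), as with the code as a covariate (0.39, adjusted p = 0.0538), whereas that in CCN2 KO kidneys was 0.60 (adjusted p = 0.00422) with the kidneys coded 33 and 0.46 (adjusted p = 0.0365) with the covariate.

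Itga5, the α chain of the fibronectin receptor α5β1, was low in sham kidneys. Its log2 RPKM was 2.28, 1.80, 1.98, 1.68 and 1.81 in CCN2 KO IRI kidneys, against 0.32, 1.27, 0.75 and 0.94 in CCN2 KO sham kidneys. It was 2.03, 1.96, 1.81 and 1.91 in WT IRI kidneys, against 0.85, 1.35, 1.12 and 1.25 in WT sham kidneys. The groups did not overlap, and the log2 difference was 1.09 (SE 0.17, 2.13-fold, adjusted p = 0.000334) in CCN2 KO and 0.78 (SE 0.18, 1.72-fold, adjusted p = 0.00264) in WT kidneys. Itgb1 had a smaller difference on a higher level: 6.13, 6.01, 6.15, 6.11 and 5.88 in CCN2 KO IRI kidneys, against 5.54, 5.38, 5.77 and 5.68 in CCN2 KO sham kidneys. In WT IRI kidneys Itgb1 was at 6.02, 5.86, 5.81 and 5.91, against 5.12, 5.23, 5.39 and 5.58 in WT sham kidneys. The log2 difference of Itgb1 was 0.47 (SE 0.10, 1.38-fold, adjusted p = 0.00336) in CCN2 KO and 0.57 (SE 0.11, 1.48-fold, adjusted p = 0.00058) in WT kidneys.

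Itga1, a collagen receptor chain, ranged from 2.04 to 2.55 in CCN2 KO IRI kidneys, against 2.01 to 2.32 in CCN2 KO sham kidneys, and from 1.88 to 2.47 in WT IRI kidneys, against 1.93 to 2.71 in WT sham kidneys. Its log2 difference was 0.14 (95% CI −0.19 to 0.48, adjusted p = 0.534) in CCN2 KO and −0.05 (95% CI −0.41 to 0.30, adjusted p = 0.817) in WT kidneys. Itgb3, the β chain of the vitronectin receptor αvβ3 and of the platelet fibrinogen receptor, stayed below log2 0 in all 17 kidneys, from −1.42 to −0.46 in CCN2 KO IRI, −1.07 to −0.77 in WT IRI, −1.82 to −0.54 in CCN2 KO sham kidneys and −1.57 to −1.12 in WT sham kidneys. Itga2, the other collagen receptor chain, ranged from −3.17 to −1.68 in CCN2 KO IRI kidneys and from −3.03 to −1.19 in CCN2 KO sham kidneys. It was at the lowest possible value in 2 of 4 WT IRI kidneys and in 3 of 4 WT sham kidneys. The Itgb3 ranges of WT IRI and WT sham kidneys did not overlap, and those of CCN2 KO IRI and CCN2 KO sham kidneys did. Neither gene passed the filter on low values. In a fit of 22336 genes without that filter, Itgb3 had a log2 difference of 0.27 (adjusted p = 0.607) for CCN2 KO IRI against CCN2 KO sham and of 0.38 (adjusted p = 0.415) for WT IRI against WT sham, and Itga2 of 0.12 (adjusted p = 0.924) and 0.36 (adjusted p = 0.626).

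**Figure D2:**
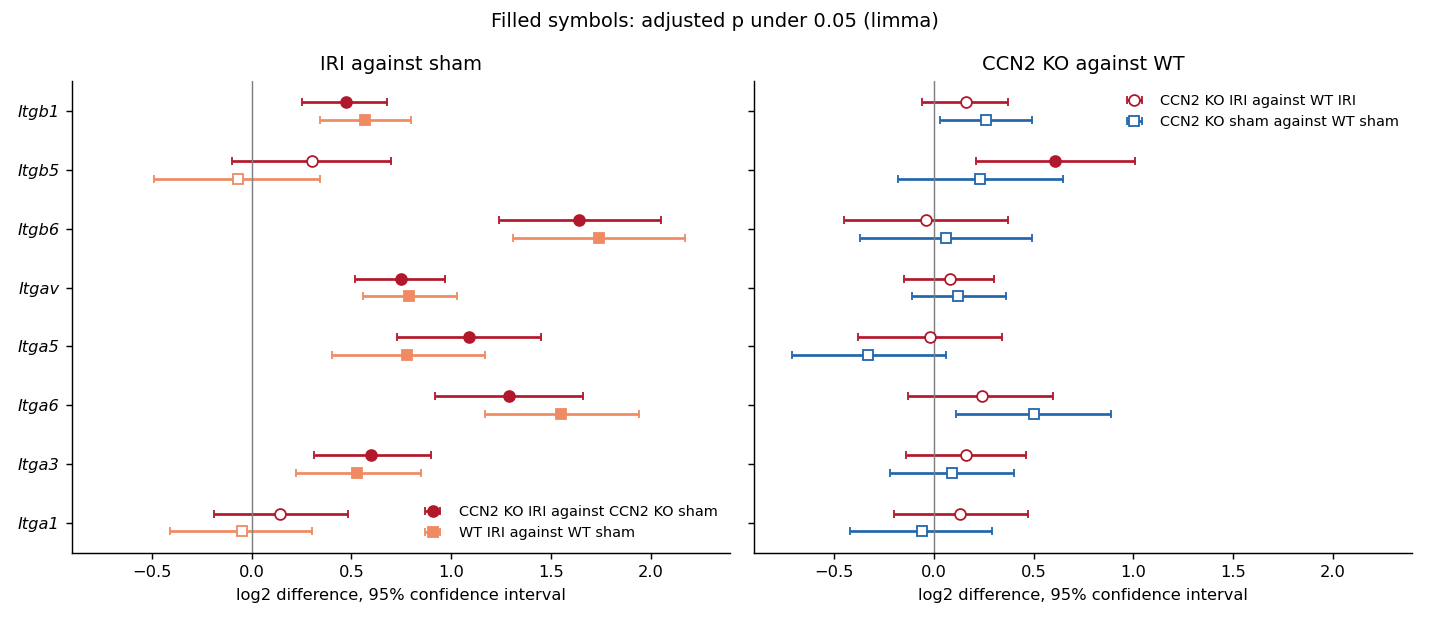
Log2 differences of the 8 tested integrin members with 95% confidence intervals, for IRI against sham within each label (left) and for CCN2 KO against WT within each operation (right); filled symbols have an adjusted p under 0.05 in limma. On the left 6 members lie to the right of 0 under both labels, with Itgb6 at 1.64 and 1.74, and on the right Itgb5 after IRI, at 0.61, is the filled symbol.

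Markers of leukocytes, which carry integrins of their own, moved in the same comparisons. Over all genes tested, 14.3% were higher and 13.2% lower in CCN2 KO IRI against CCN2 KO sham kidneys. For WT IRI against WT sham kidneys it was 19.5% and 20.3%. Of 6 tested leukocyte markers (8 listed), 2 were higher in CCN2 KO IRI against CCN2 KO sham kidneys and 4 in WT IRI against WT sham kidneys. Their summed RPKM ranged from 31.5 to 60.1 in CCN2 KO IRI, 33.9 to 40 in WT IRI, 20.3 to 21.8 in CCN2 KO sham kidneys and 18.6 to 25 in WT sham kidneys, and no listed marker was at the lowest value in all kidneys. Cd68, a macrophage marker, and S100a8, a neutrophil marker, passed under both labels, and S100a9 and Csf1r in WT kidneys. S100a8 was below log2 0 in every sham kidney, so it passed the filter on low values through IRI kidneys alone. Ptprc and Lyz2, the other tested markers, passed under neither label. Their mean log2 RPKM was 0.03 and 2.58 in WT IRI, against 0.21 and 3.17 in WT sham kidneys. It was 0.50 and 3.48 in CCN2 KO IRI, against −0.14 and 2.97 in CCN2 KO sham kidneys. Proximal tubule markers summed to 2900 to 4211 RPKM in CCN2 KO IRI, 2215 to 3449 in WT IRI, 2674 to 3553 in CCN2 KO sham kidneys and 2922 to 3530 in WT sham kidneys. In WT IRI against WT sham kidneys 4 of 6 endothelial markers, 2 of 4 thick ascending limb markers and 1 of 6 proximal tubule markers were lower, as were 1 of 3 distal convoluted tubule, 2 of 4 collecting duct and 1 of 4 tested fibroblast and pericyte markers, and 1 collecting duct marker was higher. In CCN2 KO IRI against CCN2 KO sham kidneys 2 of 4 collecting duct markers were lower, 1 of 6 proximal tubule and 1 of 4 tested fibroblast and pericyte markers were higher, and 0 passed among the thick ascending limb, distal convoluted tubule and endothelial markers. The part of these cells in the integrin differences was not tested.

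Comparing CCN2 KO IRI with WT IRI kidneys asks whether the receptors of CCN2 differ when its gene is targeted. Itgb5 was higher in CCN2 KO IRI kidneys, and the other 7 tested members did not pass the test. Its log2 RPKM was 4.97, 4.66, 5.01, 5.16 and 5.04 in CCN2 KO IRI kidneys, against 4.59, 4.64, 4.37 and 3.83 in WT IRI kidneys. The ranges did not overlap, by a margin of 0.02 between 4.66 and 4.64, and the kidney at 3.83 was the lowest of all 17. The log2 difference was 0.61 (SE 0.19, 95% CI 0.21 to 1.01, 1.53-fold, adjusted p = 0.0434). Without that lowest kidney it was 0.43 and did not pass (adjusted p = 0.173). The call was kept in 8 of 17 alternatives and lost in 9, with adjusted p from 0.0141 to 0.173 and a log2 difference from 0.43 to 0.71. With 1 of 8 tested members higher and 0 lower, the members stand beside 7.19% higher and 5.07% lower among all genes tested, and 1 member had ranges that did not overlap, beside 17.3% of all genes.

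The other members did not pass after IRI. The log2 difference of CCN2 KO IRI against WT IRI was 0.08 (95% CI −0.15 to 0.30) for Itgav and 0.16 (95% CI −0.06 to 0.37) for Itgb1. For the laminin receptor chains it was 0.24 (95% CI −0.13 to 0.60) in Itga6 and 0.16 (95% CI −0.14 to 0.46) in Itga3. It was −0.04 (95% CI −0.45 to 0.37) for Itgb6, −0.02 (95% CI −0.38 to 0.34) for Itga5 and 0.13 (95% CI −0.20 to 0.47) for Itga1. The lowest adjusted p of these 7 was that of Itgb1, 0.317. Without the filter on low values, Itgb3 differed by 0.03 (adjusted p = 1) and Itga2 by 0.42 (adjusted p = 0.594).

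Markers of several cell types were higher in CCN2 KO IRI kidneys than in WT IRI kidneys, beside Itgb5. Over all genes tested, 7.19% were higher and 5.07% lower. Of 4 thick ascending limb markers 3 were higher (Umod, Slc12a1 and Kcnj1), and their list summed to 550 to 1111 RPKM in CCN2 KO IRI and 189 to 405 RPKM in WT IRI kidneys. Of 6 endothelial markers 3 were higher (Pecam1, Cdh5 and Tie1), with a sum of 31.9 to 41.9 RPKM in CCN2 KO IRI and 13.9 to 34.7 RPKM in WT IRI kidneys. Of 4 tested fibroblast and pericyte markers 2 were higher (Dcn and Cspg4), with a sum of 14.6 to 21.4 RPKM in CCN2 KO IRI and 6.61 to 12.7 RPKM in WT IRI kidneys. Of 6 proximal tubule markers 2 were higher, Lrp2 and Hnf4a, and of 3 distal convoluted tubule markers 1, Slc12a3. Of 4 collecting duct markers 1 was lower, Aqp2, and 0 of 6 tested leukocyte markers passed. The part of these cells in the difference of Itgb5 was not tested.

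In sham kidneys 0 of the 8 tested members passed the test between CCN2 KO and WT (limma), with an unadjusted p under 0.05 in 2, Itga6 and Itgb1. Of all 12608 genes 0 passed as well (0% higher and 0% lower, limma), where 1640 genes had an unadjusted p under 0.05 and 4.71% of genes did not overlap. With sample weights limma called 6 genes. Itga6 had log2 RPKM of 3.27, 2.61, 3.09 and 3.21 in CCN2 KO sham kidneys, against 2.09, 3.12, 2.55 and 2.41 in WT sham kidneys, which overlapped. Its log2 difference was 0.50 (95% CI 0.11 to 0.89) with an adjusted p of 0.29. Itgb1 had a difference of 0.26 (95% CI 0.03 to 0.49, adjusted p = 0.333), Itga5 of −0.33 (95% CI −0.71 to 0.06, adjusted p = 0.454) and Itgb5 of 0.23 (95% CI −0.18 to 0.65, adjusted p = 0.634). The ranges of all 10 members overlapped between CCN2 KO sham and WT sham kidneys.

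The response to IRI was then compared between the labels, as the difference of CCN2 KO IRI against CCN2 KO sham minus that of WT IRI against WT sham. In limma 0 of the 8 tested members passed, and 0 had an unadjusted p under 0.05, beside 0.127% higher and 0.0555% lower among all genes. The difference was 0.38 for Itgb5 (95% CI −0.20 to 0.95, adjusted p = 0.544), 0.31 for Itga5 (95% CI −0.22 to 0.83, adjusted p = 0.595) and −0.27 for Itga6 (95% CI −0.80 to 0.27, adjusted p = 0.654). For Itgb6 it was −0.10 (95% CI −0.69 to 0.50), for Itgb1 −0.10 (95% CI −0.42 to 0.21) and for Itgav −0.05 (95% CI −0.38 to 0.28). Itga3 and Itga1 had differences of 0.07 (95% CI −0.36 to 0.50) and 0.20 (95% CI −0.29 to 0.68). The higher level of Itgb5 in CCN2 KO IRI kidneys than in WT IRI kidneys is thus not shown to be a different response to IRI.

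Since α chains are shared among β chains, the makeup of the member β chains is described here, with no test. It is the percent of the summed RPKM of Itgb1, Itgb3, Itgb5 and Itgb6 in each kidney. Itgb8, another partner of αv, is not a member and was left out. Its mean RPKM was 19.6 in CCN2 KO IRI, 16.2 in WT IRI, 10.7 in CCN2 KO sham and 10.3 in WT sham kidneys. The shares are thus not those of all β chains. Itgb6 made up 22.7 ± 2.67% (SD, n = 5) in CCN2 KO IRI and 26.9 ± 2.05% (n = 4) in WT IRI kidneys, and 11.6 ± 4.39% (n = 4) in CCN2 KO sham kidneys and 12.5 ± 1.99% (n = 4) in WT sham kidneys. The lowest IRI kidney, at 18.9%, was above the highest sham kidney, at 17.2%. Itgb5 made up 24.6 ± 1.89% in CCN2 KO IRI, 18.7 ± 3.26% in WT IRI, 30.4 ± 3.2% in CCN2 KO sham kidneys and 30.5 ± 4.68% in WT sham kidneys. Its share was lower in every WT IRI kidney, at most 21.1%, than in any CCN2 KO IRI kidney, at least 21.7%. Itgb1 was the largest part in every group, with means from 52.3% in CCN2 KO IRI to 57.5% in CCN2 KO sham kidneys, and Itgb3 stayed under 1% in every kidney. The summed level of the member β chains was 128 ± 9.88 RPKM in CCN2 KO IRI and 111 ± 10.2 RPKM in WT IRI kidneys, against 84.1 ± 4.81 RPKM in CCN2 KO sham kidneys and 72.3 ± 12.4 RPKM in WT sham kidneys.

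**Figure D3:**
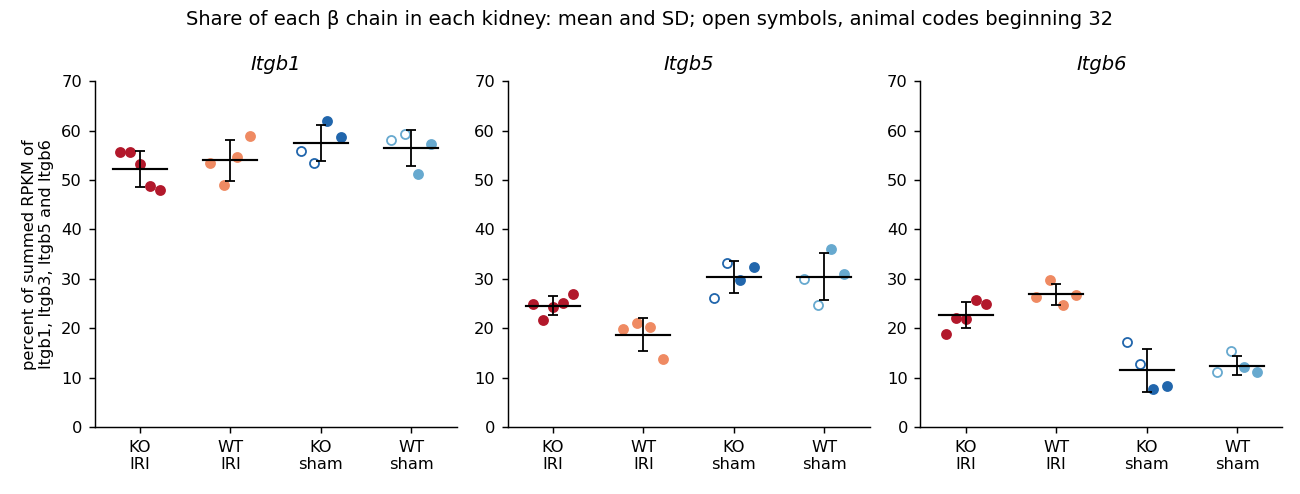
Percent of the summed RPKM of Itgb1, Itgb3, Itgb5 and Itgb6 that Itgb1, Itgb5 and Itgb6 took in each kidney (Itgb3, under 1%, is not drawn); points are kidneys, lines and bars the mean and SD, and open symbols mark animal codes beginning with 32. The share of Itgb6 averages 22.7% and 26.9% in the IRI groups against 11.6% and 12.5% in the sham groups, and that of Itgb5 24.6% and 18.7% against 30.4% and 30.5%.

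Among the α chains, over the summed RPKM of the 6 member genes, Itga6 took 33.2 ± 3.28% in CCN2 KO IRI and 31.2 ± 0.737% in WT IRI kidneys, against 24 ± 3.86% in CCN2 KO sham kidneys and 18.8 ± 3.71% in WT sham kidneys. The share of Itga1 was 8.35 ± 1.45% in CCN2 KO IRI and 8.42 ± 1.33% in WT IRI kidneys, against 13.1 ± 1.28% in CCN2 KO sham kidneys and 15.2 ± 2.02% in WT sham kidneys. Itgav kept a mean share between 28.7% and 30.4% in all groups. These shares are ratios within each kidney, so a share can be lower where the level of its gene is the same.

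Of 12 other integrin α chains 5 were tested and of 4 other β chains 3. Itgb8, an epithelial and mesenchymal partner of αv that also activates TGFβ, rose in both comparisons, by a log2 difference of 0.87 (SE 0.18, adjusted p = 0.00235) for CCN2 KO IRI against CCN2 KO sham and 0.70 (SE 0.19, adjusted p = 0.00763) for WT IRI against WT sham, where the ranges overlapped. Itgb2, the shared β chain of the leukocyte integrins, was higher in CCN2 KO IRI kidneys than in WT IRI kidneys by 0.61 (SE 0.19, adjusted p = 0.0476) and than in CCN2 KO sham kidneys by 1.12 (SE 0.19, adjusted p = 0.000653). Itgax, the α chain that marks dendritic cells and some macrophages, rose by 1.34 (SE 0.29, adjusted p = 0.00329) and Itga7, a laminin receptor chain of muscle, by 0.37 (SE 0.12, adjusted p = 0.0317), both for CCN2 KO IRI against CCN2 KO sham. On the log2 scale Itgax was at most −0.26 in CCN2 KO sham and −0.06 in WT sham kidneys. It thus passed the filter on low values through IRI kidneys alone. In WT kidneys after IRI, Itga7 differed by −0.08, Itgax by 0.55 (adjusted p = 0.174, limma) and Itgb2 by 0.27 (adjusted p = 0.302), and none passed. The difference of IRI responses between the labels did not pass either. It was 0.45 for Itga7 (adjusted p = 0.243), 0.79 for Itgax (adjusted p = 0.397) and 0.84 for Itgb2 (adjusted p = 0.177). The CCN2 KO sham range of Itga7, 1.55 to 1.75, lay below the WT sham range, 1.85 to 2.12, though that difference did not pass. Ranges did not overlap for 4.71% of all genes between the sham groups. Itga2b, the platelet chain that pairs with β3, averaged −0.07 ± 0.41 on the log2 scale in CCN2 KO IRI (n = 5), against 0.75 ± 0.16 in WT IRI, 0.74 ± 0.19 in CCN2 KO sham kidneys and 0.89 ± 0.34 in WT sham kidneys (n = 4 each). It was lower in CCN2 KO IRI kidneys by a log2 difference of −0.82 from WT IRI (SE 0.22, adjusted p = 0.0239) and of −0.81 from CCN2 KO sham kidneys (SE 0.22, adjusted p = 0.0112), with overlapping ranges. The summed RPKM of 5 platelet markers ranged from 1.56 to 2.57 in CCN2 KO IRI, 0.472 to 8.39 in WT IRI, 1.62 to 2.47 in CCN2 KO sham kidneys and 1.59 to 6.67 in WT sham kidneys. Of 2 tested platelet markers, Pf4 was higher in CCN2 KO IRI against CCN2 KO sham kidneys, and 0 passed in the other comparisons. For CCN2 KO IRI against CCN2 KO sham, 14.3% of all genes tested were higher, 13.2% lower, and 20.7% did not overlap. The Pf4 ranges overlapped there, at −0.99 to 0.40 against −3.32 to −0.94 on the log2 scale. Ppbp, the other tested marker, did not pass and went the other way without overlap, at −0.94 to −0.33 against 0.08 to 0.59.

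The ligands of these receptors moved in both directions. Of the 6 CCN genes 2 were tested, and Cyr61, which encodes CCN1, another integrin ligand of the family, rose by a log2 difference of 3.39 (SE 0.49, adjusted p = 0.000179) in CCN2 KO and 4.46 (SE 0.52, adjusted p = 8e-06) in WT kidneys after IRI. Ctgf had differences of 0.82 (SE 0.35, adjusted p = 0.0911) and 0.88 (SE 0.37, adjusted p = 0.0648), which did not pass. Of 11 tested genes of RGD and related ligands, 2 rose and 1 fell in each comparison of IRI with sham. Those that rose were Spp1 and Thbs1 in CCN2 KO kidneys, and Spp1 and Tnc in WT kidneys. On the log2 scale Tnc was at most −0.18 in CCN2 KO sham and −0.74 in WT sham kidneys. Tnc thus passed the filter on low values through IRI kidneys alone. Over all genes tested, 14.3% were higher and 13.2% lower in CCN2 KO kidneys, and 19.5% and 20.3% in WT kidneys. Spp1, which encodes the αv ligand osteopontin, rose by 1.05 (SE 0.24, adjusted p = 0.00487) in CCN2 KO and 1.77 (SE 0.26, adjusted p = 5.78e-05) in WT kidneys. Npnt, which encodes nephronectin, an α8β1 ligand of the kidney, fell by 0.53 (adjusted p = 0.0111) in CCN2 KO and by 0.62 (adjusted p = 0.00374) in WT kidneys. Thbs1 (thrombospondin) was higher in CCN2 KO IRI kidneys than in WT IRI kidneys, by 1.03 (SE 0.17, adjusted p = 0.00389), the only one of the 11 that passed there. Over all genes 7.19% were higher and 5.07% lower in that comparison.

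Collagen and laminin genes, whose products Itga1, Itga2, Itga3 and Itga6 receptors bind, differed between CCN2 KO IRI and WT IRI kidneys. Of 9 tested collagen genes 6 were higher and 0 lower, with a median log2 difference of 0.50, beside 7.19% higher and a median of 0.02 over all genes. Col1a1 averaged 1.73 ± 0.53 log2 RPKM in CCN2 KO IRI (n = 5) and 0.02 ± 0.96 in WT IRI kidneys (n = 4), a difference of 1.71 (SE 0.39, adjusted p = 0.0143). Col3a1 differed by 1.68 (SE 0.36, adjusted p = 0.0106), Col1a2 by 1.24 (SE 0.35, adjusted p = 0.0308) and Col4a2, a basement membrane collagen, by 0.50 (SE 0.15, adjusted p = 0.0397). In WT IRI against WT sham kidneys 1 of the 9 rose, Col4a1 at 0.57 (adjusted p = 0.00201), and 4 fell, among them Col1a1 by 1.10 (adjusted p = 0.0445), Col4a3 by 0.77 (adjusted p = 0.000262) and Col4a5 by 0.74 (adjusted p = 0.00329). In CCN2 KO IRI against CCN2 KO sham kidneys 2 rose and 1 fell. Over all genes tested, 19.5% were higher and 20.3% lower in the WT comparison, and 14.3% and 13.2% in the CCN2 KO comparison. Fibroblast and pericyte markers, given above, were higher in the CCN2 KO IRI kidneys too, and their part in the collagen differences was not tested.

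Of 7 tested laminin genes 2 were higher in CCN2 KO IRI kidneys than in WT IRI kidneys, Lamb1 by 0.83 (SE 0.15, adjusted p = 0.00451) and Lamb2 by 0.59 (SE 0.14, adjusted p = 0.014). Over all genes tested, 7.19% were higher there. After IRI, Lamc1, the γ chain of most laminins, rose by 0.96 (SE 0.14, adjusted p = 0.000137) in CCN2 KO and 0.72 (SE 0.14, adjusted p = 0.000813) in WT kidneys. In CCN2 KO kidneys 4 of the 7 rose, beside 14.3% of all genes. Lama1 (0.54) and Lama5 (0.48) were among these 4 but did not pass in WT kidneys (0.23 and −0.30). Both had a CCN2 KO sham range below that of WT sham kidneys, a difference of −0.77 in each that did not pass. In the sham comparison 4.71% of all genes did not overlap. In WT kidneys Lamb2 fell by 0.70 (adjusted p = 0.00104).

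Inside the cell, integrin tails bind talins and kindlins, which switch the receptor on, and through vinculin, zyxin and actinins they reach the actin filaments. All 25 listed adaptors and activators were tested, and 10 rose and 3 fell in CCN2 KO IRI against CCN2 KO sham kidneys, 11 rose and 5 fell in WT IRI against WT sham kidneys. Over all genes tested, 14.3% were higher and 13.2% lower in the first comparison, and 19.5% and 20.3% in the second. Vcl (vinculin) had the largest difference of the list, 1.48 (SE 0.13, adjusted p = 1.38e-06) in CCN2 KO and 1.85 (SE 0.13, adjusted p = 1.28e-07) in WT kidneys. Fermt2, which encodes kindlin-2, rose by 0.83 (SE 0.12, adjusted p = 0.00017) and 1.03 (SE 0.13, adjusted p = 1.23e-05) in the same comparisons, and Zyx (zyxin) by 0.65 (adjusted p = 0.00134) and 1.10 (adjusted p = 1.03e-05). Tln2, a talin gene, moved the other way and fell by 0.71 (adjusted p = 0.00378) in CCN2 KO and by 0.94 (adjusted p = 0.000335) in WT kidneys. Between CCN2 KO IRI and WT IRI kidneys 6 were higher and 0 lower, beside 7.19% and 5.07% of all genes. The 6 included Kank2 at 1.05 (SE 0.15, adjusted p = 0.00182) and Kank1, which like Kank2 links talin to the cell cortex, at 0.77 (SE 0.12, adjusted p = 0.00266). Tns1 (tensin) at 0.73 (adjusted p = 0.00674) and Parva (parvin), a partner of the kinase ILK, at 0.49 (adjusted p = 0.0168) were also among them.

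Of 8 other genes described as CCN2 receptors, 1 rose in CCN2 KO and 2 in WT kidneys after IRI, and 0 passed between CCN2 KO IRI and WT IRI kidneys. In that last comparison 5 of the 8 nevertheless had ranges that did not overlap, beside 17.3% of all genes. Sdc4 was lower in CCN2 KO IRI kidneys (6.86 to 7.08 against 7.25 to 7.32 on the log2 scale). The ranges of Lrp1, Lrp6, Fgfr1 and Igf2r lay above those of WT IRI kidneys by narrow margins, and none of these genes passed the test. The lowest CCN2 KO IRI against the highest WT IRI kidney was 0.77 against 0.73 for Lrp1 and 3.69 against 3.66 for Lrp6. It was 2.90 against 2.86 for Fgfr1 and 3.49 against 3.47 for Igf2r. Sdc4, a heparan sulfate proteoglycan that cooperates with α5β1, rose by 0.32 (SE 0.12, adjusted p = 0.0455) in CCN2 KO and 0.85 (SE 0.12, adjusted p = 5.08e-05) in WT kidneys. Egfr rose by 1.01 (SE 0.19, adjusted p = 0.000549) in WT kidneys. Of 7 membrane partners of integrins, 2 rose in CCN2 KO and 3 in WT kidneys, and 1 fell in each. Beside this list and the other CCN2 receptors, 14.3% of all genes were higher and 13.2% lower in CCN2 KO kidneys. In WT kidneys 19.5% of all genes were higher and 20.3% lower. Plaur, the urokinase receptor, had the largest difference of any gene in these lists, 3.87 (SE 0.52, adjusted p = 8.84e-05) in CCN2 KO and 6.43 (SE 0.55, adjusted p = 4.64e-07) in WT kidneys. Slc3a2, the CD98 heavy chain that binds β1 tails, rose by 1.28 (SE 0.18, adjusted p = 0.000137) and 1.64 (SE 0.19, adjusted p = 7.77e-06). Cav1 (caveolin) fell by 0.64 (adjusted p = 0.0109) in CCN2 KO and by 0.96 (adjusted p = 0.000491) in WT kidneys.

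**Figure D4:**
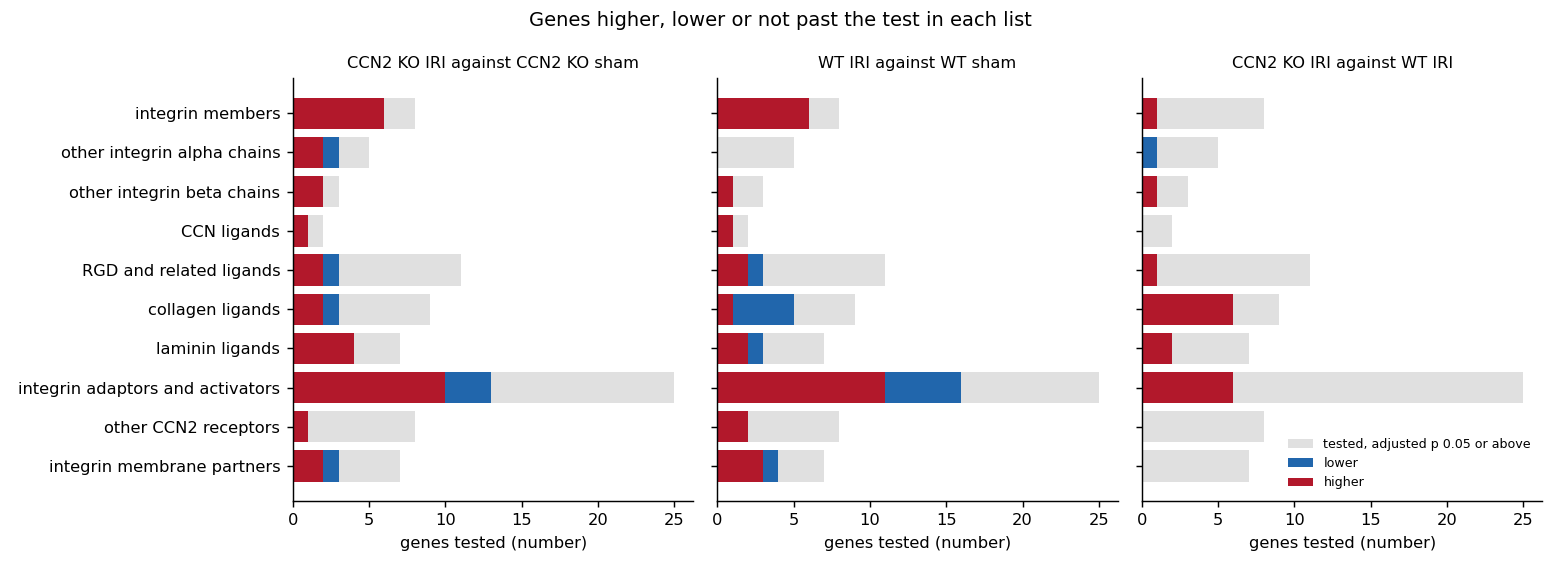
Number of genes of each list that were higher (red), lower (blue) or not past the test (grey) for CCN2 KO IRI against CCN2 KO sham, WT IRI against WT sham and CCN2 KO IRI against WT IRI; bar length is the number of genes tested. After IRI 6 of 8 integrin members are higher under both labels and 0 lower, and between CCN2 KO IRI and WT IRI kidneys 6 of 9 collagen genes are higher.

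The genes whose pattern over the 17 kidneys was nearest to the 3 members with the widest range of group means were found by the root mean square difference of log2 values after each gene was centred on its mean. For Itga6 (range of group means 1.79) they were Cast at 0.23, Agfg1 at 0.23 and Ywhag at 0.24. For Itgb6 (range 1.74) they were Agfg1 at 0.31, Txnrd1 at 0.32 and Sema4d at 0.32, and for Itga5 (range 1.11) Sptlc2 at 0.23, Slc20a2 at 0.23 and Pwp1 at 0.25. Agfg1 was thus near to both Itga6 and Itgb6, with mean log2 RPKM of 4.56 in CCN2 KO IRI, 4.70 in WT IRI, 3.26 in CCN2 KO sham kidneys and 2.88 in WT sham kidneys. All these points share the same 17 libraries, and the pattern is mostly the contrast of IRI with sham kidneys.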

How the data were processed

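RNA of kidney cortex was sequenced by the authors as poly(A)-selected, directional, single-end libraries. Per the submitters' processing notes and the study's methods, reads were aligned to GRCm38 with STAR 2.4.2a, handled with Picard and counted with HTSeq 0.6.1p1 in union mode. The strand setting and annotation of the counting are not given in the sources used here. RPKM was computed with edgeR, and the authors deposited the result as log2 RPKM values after quantile normalization. The table has 30 value columns, of which 17 carry the title of a labelled kidney. The other 13 were not used here, although the deposited normalization may have drawn on them. Counts were not at hand, so the depth per sample is unknown, no counting error is given, and the study's count model was replaced by a test on log2 values.

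These deposited values were tested with limma 3.58.1 in R 4.3.3 (eBayes with a mean-variance trend), in 1 model of 4 group means over 17 kidneys. Genes were kept when at least 4 kidneys exceeded log2 0, an RPKM of 1, which left 12608, and calls were made at a Benjamini-Hochberg adjusted p under 0.05 over those genes. Differences are on the log2 RPKM scale with 95% confidence intervals, and understate changes near the lowest value of −3.32. The two-sided tests were tested on simulated data. P-values measure the spread between mice. The alternatives were no filter, a stricter filter (at least 8 kidneys above log2 1), log2(RPKM + 1), centring on the median, no trend, sample weights, only the groups compared, the prefix of the animal code as a covariate, and each kidney left out. A fit to kidneys coded 33 was chosen after seeing the data.

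All 10 members are named, with other integrin chains that passed a test, up to 4 genes of each list with the largest differences among those that passed, and 3 nearest genes for 3 members. The members and lists (other α and β chains, CCN genes, RGD and related, collagen and laminin ligands, adaptors and activators, other CCN2 receptors, membrane partners, cell type markers) were chosen with earlier results of these data known. Smooth muscle and podocyte markers had 0 of 4 genes past the test in each comparison. Figures were drawn with matplotlib in Python.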

Additional observations from a re-analysis of the deposited data

Results flagged for a closer look

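In groups of 4 or 5 kidneys, 40 combinations of a member and a group were searched for a kidney far from the others. By this rule chance alone marks about 1 group in 20 where no values are tied at the lowest possible value. Both marks fell on Itga2, the collagen receptor chain near the lowest value of the table. The CCN2 KO sham kidney 32B4 had a log2 RPKM of −1.19, against −3.03 to −2.83 in the other 3 kidneys of its group. The WT sham kidney 33A1 was at −2.65, against −3.32, the lowest possible value, in the other 3. With those 3 tied, the rule marks any value above them, so this mark was fixed by the lowest possible value. Itga2 was below the filter on low values and was tested only in the fit without that filter, where it passed in no comparison.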

How the results depend on the processing

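For 8 tested members in 5 comparisons, no alternative reversed a called difference. Calls and non-calls were kept in every alternative with 2 exceptions. Itgb5 in CCN2 KO IRI against WT IRI (log2 difference 0.61) lost its call without the filter on low values, without the mean-variance trend (0.61 in both, so that 0 members passed in this comparison) and without each of 7 kidneys in turn (33C1, 33C3, 33C4, 33D2, 33D4, 33D5 and 33D6). Leaving out single kidneys gave 0.43 to 0.71, with 0 to 1 members called. Itga3 in WT IRI against WT sham (0.53) lost its call with the animal code as a covariate (0.39) and with kidneys coded 33 alone (0.24).

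Counts over all genes moved more. For CCN2 KO IRI against WT IRI, 1546 genes passed, 3118 with sample weights and 351 to 1771 without single kidneys, with 351 without WT IRI kidney 33C4. For CCN2 KO sham against WT sham, 0 passed, 6 with sample weights, 1 with only the groups compared, 5 with kidneys coded 33, and 0 to 136 without single kidneys, with 136 without CCN2 KO sham kidney 32B5. For CCN2 KO IRI against CCN2 KO sham, 3463 passed, 2203 with the code as a covariate, 2093 with kidneys coded 33, and 2478 to 3556 without single kidneys. For WT IRI against WT sham, 5016 passed and every alternative stayed within 1.5 times. For the difference of IRI responses, 23 passed, 14 without the filter, 41 with log2(RPKM + 1), 231 with sample weights, 3 with kidneys coded 33, and 7 to 78 without single kidneys. The causes were not tested. The fit with only the groups compared gave no value for the difference of IRI responses, which needs all 4 groups, and CCN2 KO IRI and WT IRI kidneys were all coded 33. No paired analysis was possible because animal codes are not shared between groups. Itga2 was at the lowest value of the table in 5 kidneys, so its differences are poorly resolved.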
